A study of Mus musculus with 4 samples.

Results

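The levels of 10 genes of 2 signalling routes that drive liver regrowth were measured in regenerating mouse liver: Hgf, Met and Hgfac of the hepatocyte growth factor route, and Il6st, Il6ra, Osmr, Lifr, Lepr, Stat3 and Socs3 of the interleukin-6 family route. They were taken by name, as every probe set whose only gene symbol on the array platform was 1 of these 10. This gave 29 probe sets of 34945 with a single symbol, and 10 genes of 18193. All 4 arrays of the study were used. Each measured liver of BALB/c nu/nu nude mice, which lack a thymus and so mature T cells. Per the labels, all mice of both groups had been given carbon tetrachloride, a liver toxin that scars the organ on repeated dosing, 23 times at 0.25 ml/kg. All then received 1000000 human bone marrow mesenchymal stem cells into the spleen, had part of the liver removed on day 21, and gave up the regrowing liver on day 8 after that operation. The cells carried OGFRL1 in 1 group (n = 2 arrays) and the fluorescent protein EGFP in the control group (n = 2 arrays). The array carries mouse sequences, so the level of the transgene in the injected human cells was not checked. Age, sex, vector, number of mice and any pooling are not given in the sources used here. Nothing says that both arrays of a group stand for different animals, so the p-values measure array-to-array spread, which may be technical.

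Hepatocyte growth factor is made mainly by stellate and other non-parenchymal cells of the liver and is stored as an inactive precursor. Proteases such as the Hgfac product cleave it, and the active form binds the receptor tyrosine kinase Met on hepatocytes, which is a main trigger of their division after partial hepatectomy. Cytokines of the interleukin-6 family bind a ligand-specific chain (Il6ra, Osmr, Lifr) that pairs with the shared signalling chain Il6st, and Jak kinases then activate the transcription factor Stat3. Stat3 switches on acute phase genes and Socs3, an inhibitor that binds the receptor complex and ends the signal. The leptin receptor Lepr is built like Il6st and also signals through Stat3.

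Of the 10 genes, 2 carried the letters TTCNNNGAA, the palindromic core bound by STAT factors, in the 250 bases before their start site. These were Socs3, the feedback inhibitor that Stat3 is known to induce, and Hgfac. Each is shown as 60 bases of RefSeq sequence on GRCm38.p6, 5′ to 3′ on the gene's own strand, with the 9 matching letters in capitals.

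Socs3, chr11:117969486-117969545, minus strand: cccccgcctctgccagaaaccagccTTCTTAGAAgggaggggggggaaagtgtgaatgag

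Hgfac, chr5:35041317-35041376, plus strand: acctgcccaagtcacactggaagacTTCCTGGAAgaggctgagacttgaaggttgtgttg

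The match began 154 bases before the start of Socs3 and 167 bases before that of Hgfac. The promoter table held 13 entries for the 10 genes, of which these 2 had a match. Over all 32851 promoter entries, 7.02% had one in the same 250 bases. The motif reads the same on both strands, and a match of letters is a description of the sequence only.

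None of the 10 genes passed the threshold (limma adjusted p under 0.05 over all 11942 genes tested), where 0.511% of all genes did. Each gene was read from the brightest of its probe sets on average. All log2 fold changes are OGFRL1 minus EGFP on a scale of log2(signal + 3.51), which understates changes of dim genes. At an unadjusted p under 0.05 there were 2 of 10, Hgfac and Lepr, against 15.3% of all genes. The signals of the groups did not overlap, with OGFRL1 lower, for 4 genes (Hgfac, Il6ra, Stat3 and Socs3), against 20.5% of all genes. OGFRL1 was higher without overlap for 2 genes (Hgf and Lepr), against 27.0% of all genes. The median log2 fold change of the 10 genes was 0.0074 and that of all genes tested 0.042. An exact permutation test of 2 arrays against 2 cannot give a 2-sided p below 0.333, so none was run for single genes. In bulk tissue, fewer cells of a type and less RNA per cell cannot be told apart.

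**Figure D1:**
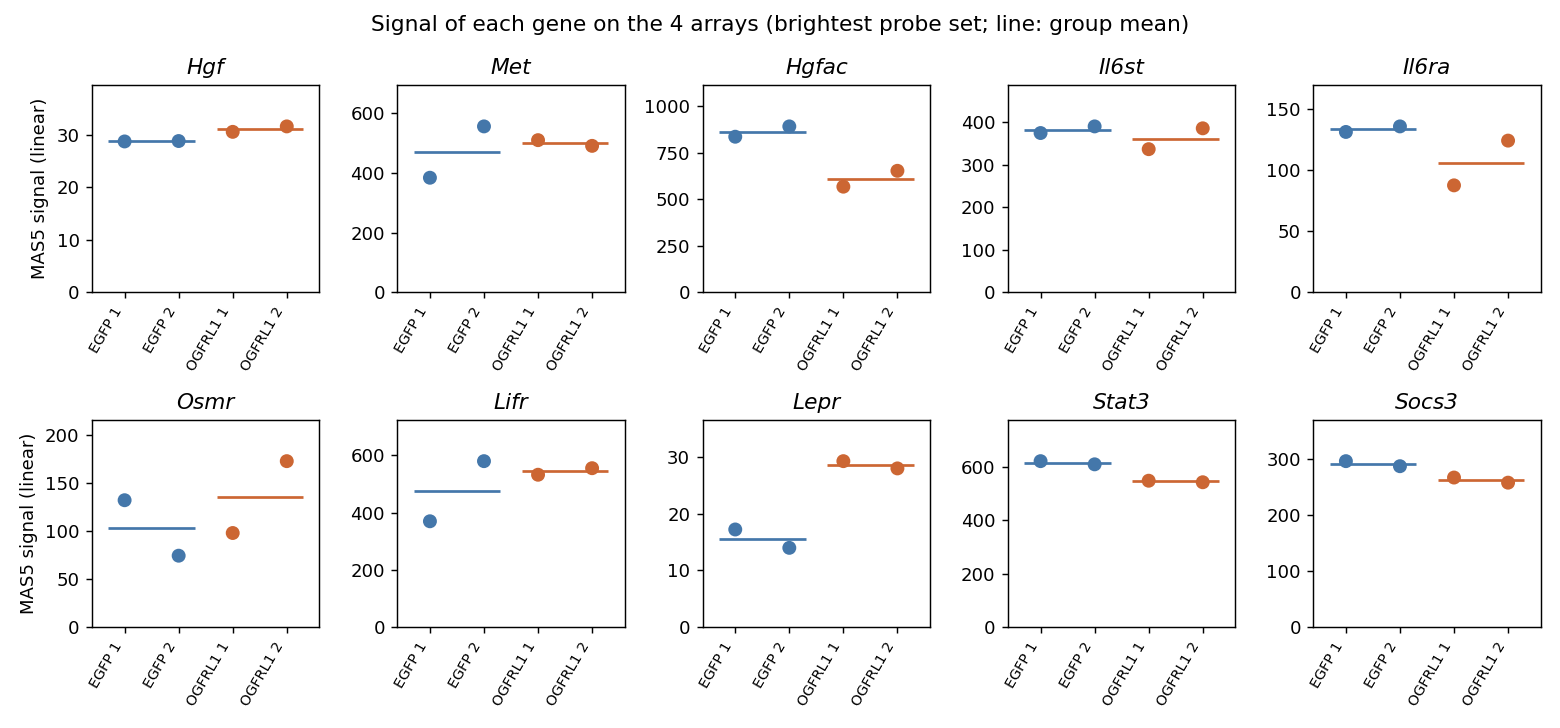
MAS5 signal on a linear axis for each of the 10 genes on EGFP arrays 1 and 2 (blue) and OGFRL1 arrays 1 and 2 (orange), with group means as lines (n = 2). Hgfac, Il6ra, Stat3 and Socs3 sit lower on both OGFRL1 arrays, Lepr and Hgf higher, and the groups overlap for Met, Il6st, Osmr and Lifr.

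The growth factor itself was almost level. Hgf had signals of 28.7 and 28.8 on the EGFP arrays and 30.5 and 31.5 on the OGFRL1 arrays. The OGFRL1 arrays were the higher pair, but by a log2 fold change of only 0.10 ± 0.24 (SE, adjusted p = 0.885, 95% interval -0.47 to 0.67). The other 2 Hgf probe sets overlapped between the groups, with log2 fold changes of 0.051 and 0.23. All 3 were dim, where the median signal of an array was 11.6 to 12.5, and no detection calls were used here.

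Most markers of stellate cells and myofibroblasts, a known source of Hgf, stood higher on the same OGFRL1 arrays. The summed signal of all 14 genes was 4055 and 4047 on the EGFP arrays and 5087 and 6636 on the OGFRL1 arrays. Of the 14, 12 were higher, 9 of them without overlap, against 27.0% of all genes. The 2 others, Lrat and Rgs5, were lower without overlap, against 20.5% of all genes. Rgs5 was named after its values were seen. In limma 0 passed the threshold, with 7 at an unadjusted p under 0.05 (15.3% of all genes). The median log2 fold change was 0.83. The first 3 genes of the list had smaller values, Lrat -0.077, Reln 0.25 and Des 0.29. What these cells contributed to the Hgf signal was not tested.

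Met, the receptor, had signals of 383 and 555 on the EGFP arrays and 509 and 490 on the OGFRL1 arrays. The OGFRL1 values lay between the EGFP values, so the groups overlapped, and the log2 fold change was 0.11 ± 0.20 (adjusted p = 0.834, 95% interval -0.36 to 0.58). Its sign rested on the low value of EGFP 1, without which it was -0.15. The dim second Met probe set was at 13.5 and 18.7 against 16.1 and 10.3.

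Hgfac, the hepatocyte-made serine protease that activates the growth factor, had the smallest p of the 10 genes. Its single probe set had signals of 835 and 891 on the EGFP arrays and 567 and 652 on the OGFRL1 arrays. Both OGFRL1 arrays were below both EGFP arrays, and the mean went from 863 ± 39.2 (SD, n = 2) to 609.6 ± 60.2. This was a log2 fold change of -0.50 ± 0.14 (SE, adjusted p = 0.171, 95% interval -0.84 to -0.17), which did not pass over all genes. Of all genes tested, 5.80% had a smaller p. In 14 other settings, among them each array left out, it lay between -0.60 and -0.40, with adjusted p from 0.0560 to 0.773.

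Hgfac was 1 of 940 genes with a mean signal of 500 to 1000. Of these, 491 were lower and 449 higher, with a median log2 fold change of -0.019. OGFRL1 was lower without overlap for 286 (30.4%, against 20.5% of all genes) and higher without overlap for 233. Spike-in controls, which are added during the assay, were lower on the OGFRL1 arrays. The 4 Cre probe sets had a mean log2 difference of -0.43, and the 14 BioB, BioC and BioD probe sets of -0.32. Hepatocyte markers were lower too, with 8 of 9 lower without overlap, against 20.5% of all genes and 47.4% of those with a mean signal of 1000 or more. None passed the limma threshold, with 7 at an unadjusted p under 0.05 (15.3% of all genes), a median of -0.51 and summed signals of 88154 and 66117 against 50076 and 54904. The part of spike-in level and hepatocyte RNA in the Hgfac difference was not tested. The 3 genes whose pattern over the 4 arrays was closest to Hgfac were Fitm2, Man1a and Pard3, with root mean square differences of 0.022, 0.026 and 0.026 between centred log2 values. With 4 arrays such closeness is a description only.

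Beyond Hgf, Met and Hgfac, 23 of 24 further genes of growth factor activation and Met signalling were tested, and 0 passed the limma threshold (2 at an unadjusted p under 0.05). Of these, 13 were higher and 10 lower, with a median log2 fold change of 0.036. Plat, the tissue plasminogen activator, was at 57.1 and 34.0 against 100.1 and 104 (1.15 ± 0.26, adjusted p = 0.116). F12, the coagulation protease of the contact system, was at 735 and 752 against 620.0 and 548 (-0.35 ± 0.14, adjusted p = 0.295). Sdc1, a heparan sulfate proteoglycan of the hepatocyte surface, had a log2 fold change of 0.48 ± 0.21, and Crk, a signalling adaptor, of 0.30 ± 0.13. Plat thus stood higher and F12 lower on both OGFRL1 arrays, and neither passed. Mst1r, the receptor related to Met, was under the filter on low signals.

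Among the receptor chains of the interleukin-6 family, Il6ra was the one with both OGFRL1 arrays lower in its brightest probe set. Il6ra, the ligand-binding chain, had signals of 131 and 136 on the EGFP arrays and 87.6 and 124 on the OGFRL1 arrays. OGFRL1 1 was far below the other 3 arrays, and OGFRL1 2 only just below the EGFP pair. The log2 fold change was -0.35 ± 0.21 (adjusted p = 0.490), and -0.10 without OGFRL1 1. The second Il6ra probe set gave a like value of -0.36 ± 0.27 with overlapping groups, at 34.2 and 40.7 against 23.3 and 34.5.

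Il6st, the shared signalling chain, depended on the probe set. The brightest was at 375 and 391 on the EGFP arrays and 337 and 386 on the OGFRL1 arrays, a log2 fold change of -0.085 ± 0.14 (adjusted p = 0.829) with overlapping groups. The second was at 352 and 360.1 against 290.0 and 214, lower on both OGFRL1 arrays by -0.51 ± 0.18 (adjusted p = 0.287 over 20238 probe sets). The next was at 71.4 and 69.9 against 54.4 and 61.6, again lower on both (-0.27 ± 0.19). The dimmest had a mean under the filter.

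Lifr, the receptor for leukaemia inhibitory factor, also depended on the probe set. Its brightest probe set was at 369.9 and 580.2 on the EGFP arrays and 533 and 556 on the OGFRL1 arrays. EGFP 1 was the low array and the groups overlapped (0.23 ± 0.22, adjusted p = 0.683). The second was at 350.5 and 439 against 248 and 237. Both OGFRL1 arrays were lower, with a log2 fold change of -0.69 ± 0.17 and the smallest p of the 25 probe sets past the filter (adjusted p = 0.144). It passed without EGFP 1 (-0.85, adjusted p = 0.0249) but not with another array left out, and its adjusted p ran from 0.0181 to 0.825 over all other settings. The dimmest Lifr probe set was low and overlapping at 15.5 and 17.2 against 6.01 and 20.5.

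A ratio of 2 probe sets within an array does not depend on the factor by which that array was scaled, so the disagreement was measured that way. For Lifr, the ratio of the brightest to the second was 1.06 and 1.32 on the EGFP arrays and 2.15 and 2.34 on the OGFRL1 arrays. The ratio was higher on both OGFRL1 arrays. The same ratio of the 2 brightest probe sets was fitted for all 5118 genes with at least 2 past the filter, of which 0.0391% passed the threshold and 36.9% had groups that did not overlap. The Lifr ratio had a log2 change of 0.92 ± 0.19 (adjusted p = 0.474), so it did not pass. It passed without EGFP 2 (1.08, adjusted p = 0.00409) and in no other setting, where the adjusted p ran from 0.0552 to 1.00.

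Il6st had ratios of 1.06 and 1.08 on the EGFP arrays and 1.16 and 1.80 on the OGFRL1 arrays. The separation rested on OGFRL1 2, and the log2 change was 0.42 ± 0.24 (adjusted p = 0.781), or 0.11 without that array. Of the 8 genes with such a pair, the ratio was higher on both OGFRL1 arrays for 4, Lifr, Il6st, Lepr and Met, and overlapped for Hgf, Il6ra, Stat3 and Socs3. The second probe sets of Met and Lepr had mean signals of only 14.7 and 14.2, close to the array medians, so these 2 ratios rest on signals that may be background. Probe sets of a gene can report different transcript ends or splice forms. Which forms these probe sets report was not determined here.

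**Figure D2:**
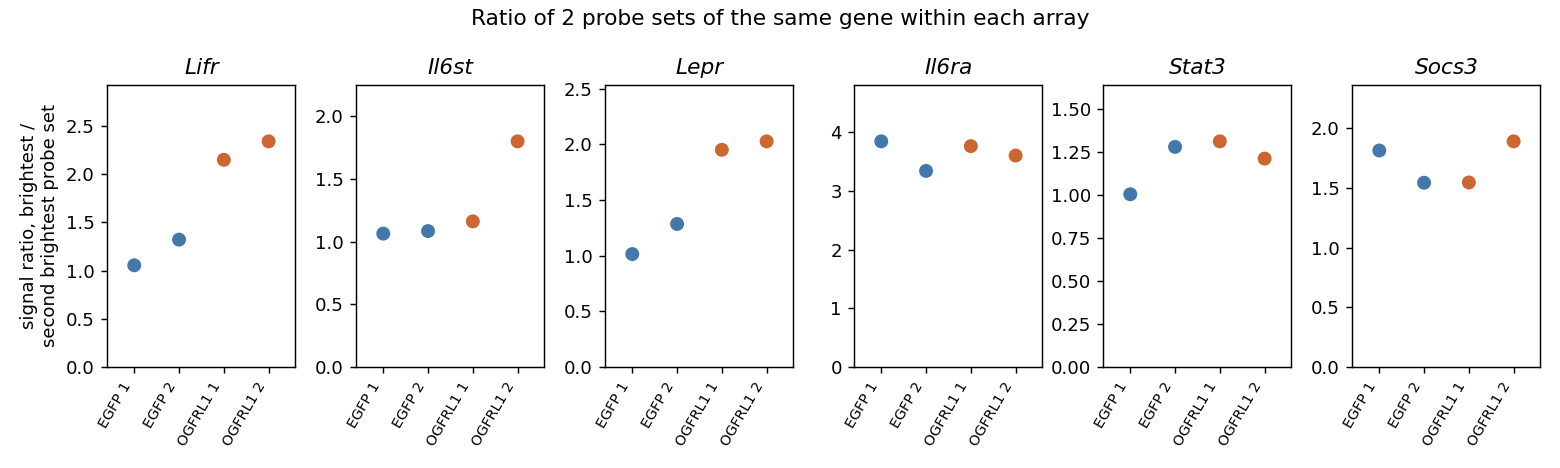
Ratio of the signals of the brightest and the second brightest probe set of a gene within each array, on linear axes from 0, for 6 genes (blue EGFP, orange OGFRL1). For Lifr the ratio is 1.06 and 1.32 on the EGFP arrays and 2.15 and 2.34 on the OGFRL1 arrays, while for Il6ra, Stat3 and Socs3 the groups overlap.

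Osmr, the oncostatin M receptor, varied most within groups. Its only probe set past the filter was at 132 and 74.2 on the EGFP arrays and 97.8 and 173 on the OGFRL1 arrays. The high arrays were EGFP 1 and OGFRL1 2, 1 of each group, and the log2 fold change of 0.38 ± 0.35 (adjusted p = 0.668) was about the size of its SE. It was -0.020 without EGFP 2 and -0.018 without OGFRL1 2.

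Macrophage markers were high on the same 2 arrays as Osmr. The summed signal of the 12 Kupffer cell and macrophage genes was 17283 and 7015 on the EGFP arrays and 8692 and 14973 on the OGFRL1 arrays. Of the 12, 6 were higher and 6 lower in OGFRL1, 0 passed (also at an unadjusted p under 0.05 in limma), and 11 overlapped between the groups, among them Clec4f and Vsig4, markers of resident Kupffer cells. The summed neutrophil signal had the order of the macrophage sums, at 770.0 and 295 against 373 and 529 over 6 genes past the filter. S100a8 was its largest part, at 462 and 135 against 185 and 286. S100a8, S100a9 and Csf3r each had that order, while Mpo, Elane and Ngp did not. Csf3r, Mpo, Elane and Ngp were named after their values were seen. The part of macrophages and neutrophils in the Osmr signal was not tested.

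**Figure D3:**
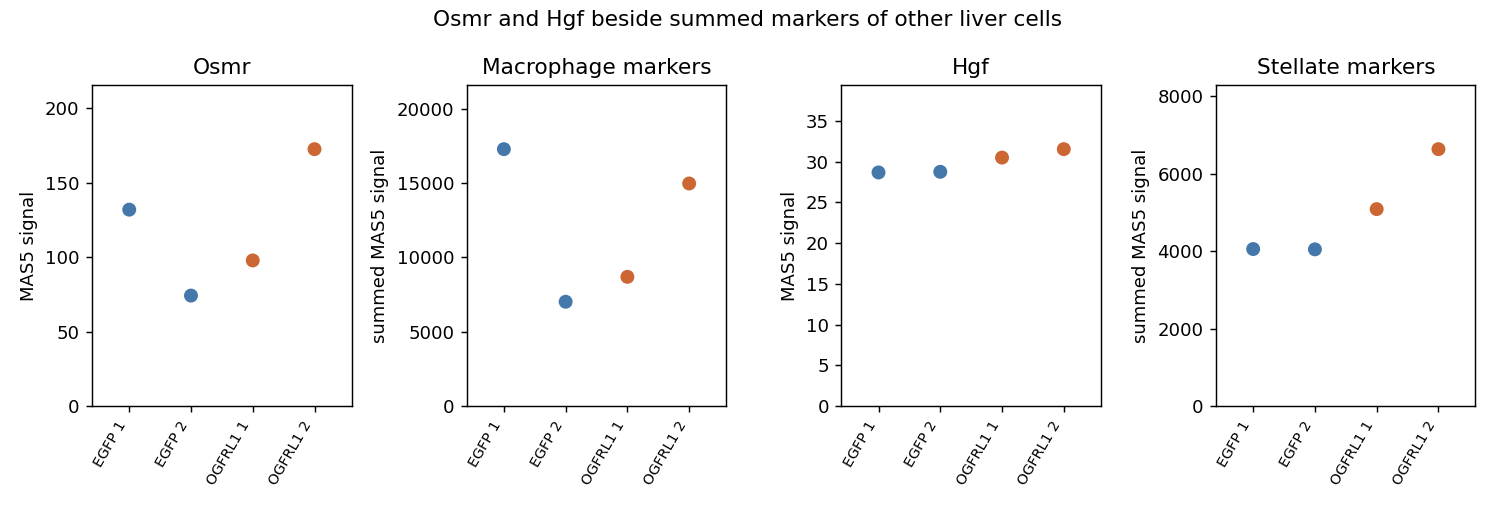
MAS5 signal of Osmr and Hgf and summed signal of the markers of macrophages (12 genes) and of stellate cells and myofibroblasts (14 genes) on each array, on linear axes from 0 (blue EGFP, orange OGFRL1). Osmr and the macrophage sum are both higher on EGFP 1 and OGFRL1 2 than on the other 2 arrays, while Hgf stays between 28.7 and 31.5 and the stellate sum is between 4047 and 6636.

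Lepr had the largest fold change of the 10 genes, at a low signal. Its brightest probe set was at 17.2 and 14.0 on the EGFP arrays and 29.3 and 28.0 on the OGFRL1 arrays. Both OGFRL1 arrays were higher, by a log2 fold change of 0.76 ± 0.28 (adjusted p = 0.275), and the ratio of the mean signals was 1.84. Another probe set was at 10.8 and 9.08 against 14.7 and 15.2 (0.46 ± 0.33). Its EGFP mean of 9.95 was under the filter of 11.6. It passed the filter only through the OGFRL1 arrays, so its direction adds no separate evidence. A further one overlapped (0.061 ± 0.34), and the dimmest was under the filter. Taken as the mean over its probe sets, Lepr differed by 0.26 on the log2 scale (adjusted p = 0.760), and over all settings its adjusted p ran from 0.187 to 0.871.

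The 2 other receptor chains of the family past the filter, Cntfr and Il27ra, had log2 fold changes of 0.58 ± 0.36 and 0.28 ± 0.30 at signals of at most 22.6, and neither passed. Cntfr had an EGFP mean of 10.9, under the filter of 11.6, and was kept only through the OGFRL1 arrays. Of 11 ligand genes, 8 were on the array under a single symbol and 4 were past the filter. Il6, Il11, Osm and Lep were under it, with highest signals of 8.87, 5.72, 17.0 and 1.83 over all their probe sets and arrays. Clcf1, a ligand that acts through Lifr and Il6st, was at 21.6 and 12.9 against 43.1 and 33.5, higher on both OGFRL1 arrays without passing (1.03 ± 0.32, adjusted p = 0.206). Ctf1, cardiotrophin, had -0.26 ± 0.18, Ebi3 -0.15 ± 0.39 and Lif -0.16 ± 0.41.

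Stat3, the transcription factor of the route, was close to level. Its brightest probe set was at 620.3 and 608 on the EGFP arrays and 547 and 541 on the OGFRL1 arrays. The arrays of each group lay close together and the groups did not overlap, but the log2 fold change was only -0.17 ± 0.13 (adjusted p = 0.581, 95% interval -0.48 to 0.13). It ran from -0.19 to -0.0086 over the other settings. The second probe set was lower on both OGFRL1 arrays as well, at 618 and 475 against 417 and 447 (-0.33 ± 0.17). The other 2 Stat3 probe sets were dim, from 8.56 to 17.9, and had log2 fold changes of 0.18 and 0.29.

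Socs3, the feedback inhibitor, also lay slightly lower. Its brightest probe set was at 296 and 287 on the EGFP arrays and 267 and 258 on the OGFRL1 arrays (-0.15 ± 0.14, adjusted p = 0.661). A second probe set overlapped between the groups (-0.18 ± 0.18). The dimmest was at 90.0 and 61.9 against 49.3 and 50.2, lower on both OGFRL1 arrays by -0.56 ± 0.23 (adjusted p = 0.352). All 3 Socs3 probe sets had a negative log2 fold change, and none passed.

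Over all probe sets of the 10 genes, 25 of 29 were past the filter and 0 passed the limma threshold, against 0.336% of all probe sets tested. At an unadjusted p under 0.05 there were 5, of which 4 were lower, against 14.0% of all probe sets in either direction. OGFRL1 was lower without overlap for 9, against 20.0% of all probe sets, and higher without overlap for 4, against 25.9%. The 4 include the Lepr probe set that passed the filter only through the OGFRL1 arrays. The median of the 25 log2 fold changes was -0.15, and that of all probe sets 0.039. Probe sets of a gene share its transcripts and are not replicates.

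**Figure D4:**
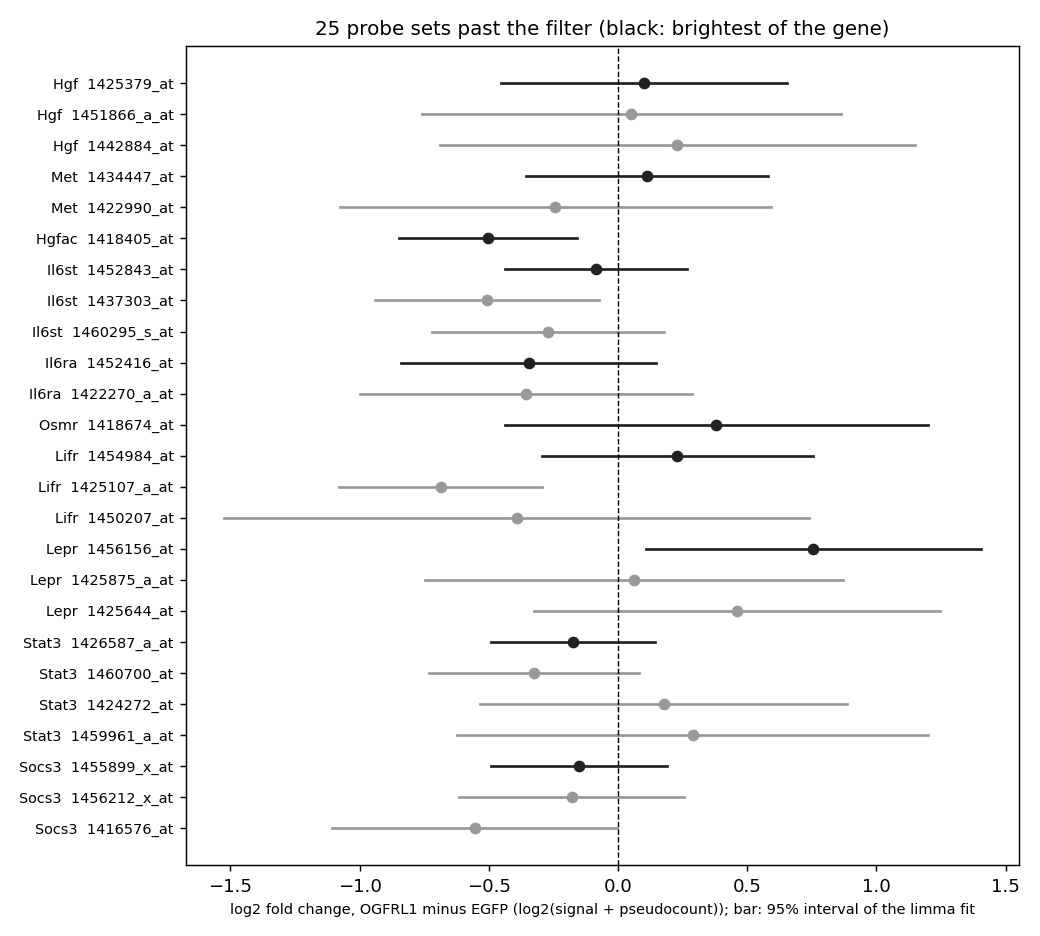
Log2 fold change (OGFRL1 minus EGFP, on the log2(signal + pseudocount) scale) of the 25 probe sets past the filter, with the 95% interval of the limma fit over 20238 probe sets, unadjusted. Black marks the brightest probe set of each gene; the 2 brightest Lifr probe sets lie on opposite sides of 0, at 0.23 and -0.69.

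Of 23 kinases, STAT factors and inhibitors of the route other than Stat3 and Socs3, 21 were tested and 0 passed in limma, also at an unadjusted p under 0.05. The median log2 fold change was 0.048, with 14 higher and 7 lower. Ptpn2, a phosphatase that acts on Jak kinases and STAT factors, was at 371 and 293 against 399 and 434 (0.33 ± 0.16, adjusted p = 0.403), higher on both OGFRL1 arrays. Ptpn11, a phosphatase that binds both Il6st and the Met adaptor Gab1, was at 417 and 445 against 490.4 and 543 (0.26 ± 0.14). Stat5b had -0.29 ± 0.20 and Pias1, an inhibitor of STAT factors, 0.28 ± 0.21.

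Genes listed for the response of hepatocytes to interleukin-6 and Stat3 lay mostly lower in OGFRL1, as did hepatocyte markers. Of 33 tested besides Socs3, 27 were lower and 6 higher, and the median log2 fold change was -0.37. The groups did not overlap, with OGFRL1 lower, for 19 of the 33, against 20.5% of all genes and 47.4% of genes with a mean signal of 1000 or more. With Socs3 included, 28 of 34 were lower, with a median of -0.35 and 1 past the threshold in limma, against 0.511% of all genes. After quantile normalization 21 of 34 were lower, with a median of -0.11. Without EGFP 1 there were also 21, with a median of -0.17, and without EGFP 2 there were 30, with a median of -0.57. The 1 gene that passed was Saa4, which fell from 5604 and 4618 to 1993 and 2248 (-1.26 ± 0.16, adjusted p = 0.0433). Saa4 is a serum amyloid of the resting liver, so this call is not that of an inducible response gene. Saa4 did not pass after quantile normalization (adjusted p = 0.0556), without OGFRL1 1 (0.309) or without OGFRL1 2 (0.363), nor without a filter, with the stricter filter, without the trend or as the mean over probe sets (0.0512 to 0.151). The inducible Saa1 was at 10113 and 8345 against 3752 and 5280 (-1.04 ± 0.21, adjusted p = 0.0896). Saa2 was at 6038 and 5971 against 958 and 2732 (-1.89 ± 0.44, adjusted p = 0.119). The serum amyloid genes have near-identical copies, so their probes may share transcripts.

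Not all genes of the list went that way. Myc, a growth gene, was at 45.9 and 28.0 against 78.6 and 76.3 (1.04 ± 0.26, adjusted p = 0.145). Hamp, the iron hormone hepcidin, chosen after its values were seen, had 0.12 ± 0.19 with overlapping groups. Most genes of the list are bright: 23 of the 34 had a mean signal of 1000 or more, and 21 of these were lower, with a median of -0.43. All 1112 tested genes that bright had a median of -0.16, with 69.7% lower. Hepatocyte markers had a median of -0.51, with 8 of 9 lower without overlap, against 20.5% of all genes. The Cre spike-in mean was -0.43. What hepatocyte RNA and the spike-in level contributed to the values of the list was not tested.

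**Figure D5:**
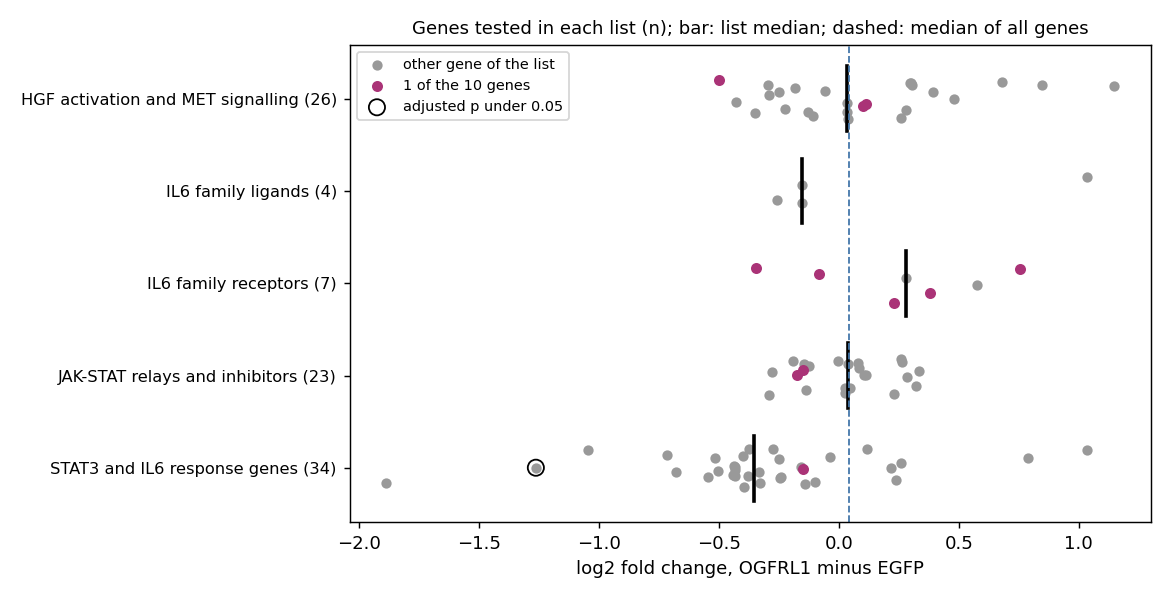
Log2 fold change (OGFRL1 minus EGFP) of each gene tested in the 5 lists of the 2 routes, with list medians as bars and the median of all genes (0.042) as a dashed line. The 10 genes are in purple, Saa4 is the circled gene that passed the threshold, and the response genes have a median of -0.35 with Socs3 included.

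Genes of dividing cells were higher on the same arrays. Of the 9 tested markers of dividing cells, all were higher on both OGFRL1 arrays, against 27.0% of all genes. In limma 4 passed the threshold (Rrm2, Birc5, Mcm5 and Mcm6, named after their values were seen), against 0.511% of all genes. The summed signal was 2744 and 2026 against 5554 and 6751. With an array left out, how many passed depended on which array it was. After quantile normalization 1 passed, as the mean over probe sets 2, and 0 without a filter or without the intensity trend. All 9 were higher in each of these settings. The markers and the 10 genes were measured on the same arrays at a single time, day 8, so earlier levels of the signals were not measured. Of the other cell types the tissue can hold, sinusoidal endothelial genes had a median of -0.24 over 10 genes. Among these, 5 were lower without overlap, against 20.5% of all genes, and 0 had an unadjusted p under 0.05 in limma. Cholangiocyte genes had a median of 0.074 over 4. Not among the genes tested were 4 of 5 B cell, 6 of 7 T cell and 3 of 6 natural killer cell markers, Cd3e and Cd79a among them. Whether each was under the filter or had no probe set with a single symbol was not separated.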

How the data were processed

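The values of 4 single-colour Affymetrix arrays of liver RNA were used as deposited. MAS5 is the software named in the submitters' processing notes. Its version, the scanner and detection calls are not given in the sources used here. The deposited table holds 1 linear signal intensity for each probe set and array. Leaving out the lowest and highest 2% of values, each array had a mean of 100.001, so the arrays had been scaled to a common target, which leaves the shape of their distributions free. Of 45101 probe sets, 64 were controls, 34945 had 1 symbol, 932 several and 9160 none in the platform annotation. All 10 symbols were found in the RefSeq gene table of GRCm38.p6.

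Signals were taken as log2 after adding 3.51, the 25th percentile of all values, which understates changes of dim genes. A gene was its brightest probe set, kept at a mean of at least 11.6, the median over probe sets. OGFRL1 minus EGFP was fitted with limma 3.58.1 in R 4.3.3 (lmFit, eBayes with intensity trend, 2-sided, Benjamini-Hochberg over all features, threshold 0.05), with 2 residual and 4.48 prior degrees of freedom, once over 11942 genes and once over 20238 probe sets. The fit of probe set ratios was added after the data were seen. The scripts were also tested on simulated signals with known changes. Figures used Python 3.11.15 and matplotlib 3.10.9. Precision is limited by having 2 arrays a group.

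The genes and lists were chosen with earlier results of these data known. The 10 genes are named always, of each pathway list those past the threshold and then those of largest absolute moderated t, up to 4, and of each marker list at most its first 3; others are said to be chosen later. Alternatives were quantile normalization, median scaling, a floor, 4 times the pseudocount, no or a stricter filter (46.6), no trend, the mean over probe sets, a replicate block and each array left out. A block with the replicate numbers crossed between the groups was added after seeing the data.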

Additional observations from a re-analysis of the deposited data

How the results depend on the processing

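None of the 10 genes passed in any setting run. Over all genes, 61 passed, against 4 after quantile normalization, 94 with 4 times the pseudocount, 21 under the stricter filter, 13 as the mean over probe sets, 0 without a filter and 0 without the intensity trend (2179 and 1654 at an unadjusted p under 0.05), and with an array left out 619 without EGFP 1, 856 without EGFP 2, 0 without OGFRL1 1 (922 unadjusted) and 2 without OGFRL1 2. Over all probe sets, 68 passed, against 12 after quantile normalization, 104 with median scaling, 116 with 4 times the pseudocount, 0 without a filter and 0 without the trend (3673 and 2537 unadjusted), and with an array left out 791, 1105, 0 and 0 in the same order (1420 and 1164 unadjusted for the last 2). With the replicate block 59 genes and 60 probe sets passed, and no call among the 10 genes changed. Nothing in the labels ties equal numbers to the same animal or day, and the array 1 minus array 2 differences of both groups correlated at -0.276 across genes. With the block Saa4 had an adjusted p of 0.0591 and 3 of 9 dividing cell genes passed. With the numbers crossed, chosen after seeing the data, 934 genes and 1274 probe sets passed, of which 0 and 1 belonged to the 10 genes. The median of the 10 genes went from 0.0074 to -0.12 under the stricter filter, which left 8 of them, to -0.17 as the mean over probe sets, and lay between -0.12 and 0.049 with an array left out. With an array left out Met ran from -0.15 (without EGFP 1) to 0.38, Lifr from -0.092 (without EGFP 1) to 0.55, Il6st from -0.18 to 0.013 (without OGFRL1 1) and Osmr from -0.020 to 0.78 (-0.018 without OGFRL1 2), so their signs turned. As the mean over probe sets Met was at -0.064 and Lifr at -0.28. The cause was not tested. A lone array left in a group is assumed to vary like the other group. The limits are 2 arrays a group and dim signals for Hgf and Lepr.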
